A study of Mus musculus with 5 samples.

Results

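Genes of the Notch pathway were measured by RNA sequencing in tumors of the adult mouse eye in which Lats1 and Lats2, both floxed, were targeted with Cre delivered by the virus AAV5 (genotype AAV5-Cre;Lats1/2 fl/fl, 3 libraries) and in wild type uvea of adult mice (2 libraries). The 10 genes described are the 4 receptors Notch1, Notch2, Notch3 and Notch4, the 4 ligands Jag1, Jag2, Dll1 and Dll4, and the target genes Hes1 and Hey1. They were chosen by gene name, and each matched a single locus of its own among 23141 named loci. The series title calls the tumors uveal melanoma. The labels do not name the cells that took up the virus, do not say whether wild type eyes received a virus, and do not tie each library to an animal of its own. The p-values therefore reflect the spread among the 5 libraries, part of which may be technical.

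Notch receptors are single-pass membrane proteins that bind Jagged and Delta-like ligands on a neighbouring cell. Ligand binding exposes the receptor to an ADAM protease and then to gamma-secretase, and the freed intracellular domain enters the nucleus, joins the DNA-binding protein RBPJ and a Mastermind coactivator, and activates genes of the Hes and Hey families of repressors. In the mouse eye the pathway is known for keeping retinal progenitors undifferentiated and for the growth of the ciliary body, where Jag1 and Notch2 act. In blood vessels Notch1, Notch4 and Dll4 are typical of endothelium and Notch3 of mural cells (pericytes and smooth muscle).

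The promoters of the 3 genes whose RNA level changed are shown first, because transcription of each gene starts there and the pathway's own DNA-binding factor can be looked for in them. They are RefSeq windows of build GRCm38.p6 from 250 bases before the start site to 30 after it, written 5′ to 3′ on the strand of the gene, with the first transcribed base in capitals. Jag1 lies at chr2:137116491-137116770 (minus strand), Notch2 at chr3:98013288-98013567 (plus strand) and Dll1 at chr17:15375794-15376073 (minus strand). Each start site is at the edge of the gene's locus in the deposited table. For Dll1 there is another RefSeq window, from a start site upstream, at chr17:15376883-15377182 (300 bases), which is not printed.
Jag1: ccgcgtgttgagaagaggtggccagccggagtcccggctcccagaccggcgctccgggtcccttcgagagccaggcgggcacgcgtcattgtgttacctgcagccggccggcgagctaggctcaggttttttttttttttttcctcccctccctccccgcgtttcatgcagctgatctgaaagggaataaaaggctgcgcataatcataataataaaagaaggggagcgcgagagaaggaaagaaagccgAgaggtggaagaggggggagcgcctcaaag
Notch2: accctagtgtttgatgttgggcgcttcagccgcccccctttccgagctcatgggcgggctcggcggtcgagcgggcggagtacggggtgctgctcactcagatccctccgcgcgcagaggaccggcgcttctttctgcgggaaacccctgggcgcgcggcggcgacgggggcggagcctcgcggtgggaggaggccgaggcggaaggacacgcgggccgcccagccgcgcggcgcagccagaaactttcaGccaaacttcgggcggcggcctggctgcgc
Dll1: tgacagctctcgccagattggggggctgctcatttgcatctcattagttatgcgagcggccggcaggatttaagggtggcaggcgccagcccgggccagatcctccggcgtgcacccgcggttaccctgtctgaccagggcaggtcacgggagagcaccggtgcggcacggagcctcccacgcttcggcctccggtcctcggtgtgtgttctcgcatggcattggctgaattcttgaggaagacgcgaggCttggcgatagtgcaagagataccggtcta
The GC content of these windows was 57.9% for Jag1, 72.5% for Notch2 and 62.5% for Dll1, with 21, 38 and 23 CpG dinucleotides in that order. None of the 3 held the RBPJ core TGGGAA or the TEAD core GGAATG on either strand. Over the full windows of 300 bases, 8 of the 10 genes had an entry (9 windows). The RBPJ core was in 0 of these and in 25.6% of 32851 promoter windows of the mouse. The TEAD core was in 2 of the 9 and in 14.7% of all windows. The windows that held it were those of Notch1, with matches at bases -233 and -216 from the start site, and Notch4, with a match at base -227. These matches are descriptions of letters, not of binding. Hes1 and Hey1 had no entry.

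The libraries held 13745768, 12687703 and 14368272 estimated fragments in tumors 1, 2 and 3 and 13911934 and 12799991 in wild type. Members were backed by 87 fragments (Dll1 in tumor 3) to 4514 fragments (Notch2 in wild type 1). Tissue make-up differed between the groups. All 8 melanocyte markers fell, with summed levels of 15.6, 30.4 and 8.88 FPKM in tumors 1, 2 and 3, against 6740 and 6520 FPKM in wild type. These markers were thus low in tumors that the series title calls uveal melanoma, and the identity of the tumor cells was not tested. FPKM are fragments scaled to transcript length and to library depth. Of 6 markers each of retinal pigment epithelium and photoreceptors, 5 and 6 fell, with photoreceptor markers summing to 1.56, 3.67 and 5.31 FPKM in tumors 1, 2 and 3, against 1140 and 1230 FPKM in the wild type libraries, which are called eye in their titles and uveal in their source. Among 6 macrophage markers 4 rose, with summed levels of 458, 368 and 831 FPKM in tumors 1, 2 and 3, against 139 and 150 FPKM in wild type, and among 5 T cell markers 4 rose. Tumor 1 alone was high in skeletal muscle markers, at 6450 summed FPKM, against 355 and 365 FPKM in tumors 2 and 3 and 403 and 381 FPKM in wild type. In such bulk tissue, fewer cells of a type and less RNA per cell cannot be told apart.

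Of the 10 genes, Jag1 rose and Notch2 and Dll1 fell in the tumors. All 10 passed the filter on low counts. A change means an adjusted p under 0.05 in edgeR's quasi-likelihood test over all named loci. The 3 changes among 10 genes compare with 34.1% of all 15241 tested loci (18.7% rose and 15.4% fell), so the number of changes was near the background. The median log2 fold change of the 10 genes was 0.02, against 0.048 over all tested loci. Groups did not overlap in 5 of the 10 genes, against 69.5% of tested loci. DESeq2 called the same 3 genes, where it called 43.3% of tested loci. With only 1 wild type library in the fit, edgeR called no locus at all, and unadjusted p-values were under 0.05 at 4085 loci without wild type 1 and at 3996 without wild type 2.

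In tumors the order of mean levels was Hes1, Jag1, Notch3, Notch2, Notch1, Jag2, Hey1, Notch4, Dll1 and Dll4. In wild type it was Hes1, Notch2, Jag1, Notch3, Dll1, Notch1, Jag2, Hey1, Notch4 and Dll4. Hes1 was thus highest in both groups on average, although Jag1 exceeded it in tumor 3 (35.7 FPKM for Jag1 and 26.2 FPKM for Hes1). In tumors the range of each gene from Notch3 down to Dll4 overlapped that of its neighbour in this order. Within every single tumor, however, Notch2 exceeded Notch1 and Jag2 exceeded Hey1, whereas the other neighbours from Notch3 to Dll4 changed places between tumors. In wild type Notch2 stood apart from Hes1 above it and from Jag1 below it, whereas the ranges of Notch3 and Dll1, and those of Jag2 and Hey1, overlapped. Within each wild type library Notch3 exceeded Dll1 (11.2 and 10.9 FPKM in wild type 1, 10.6 and 9.90 FPKM in wild type 2).

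**Figure D1:**
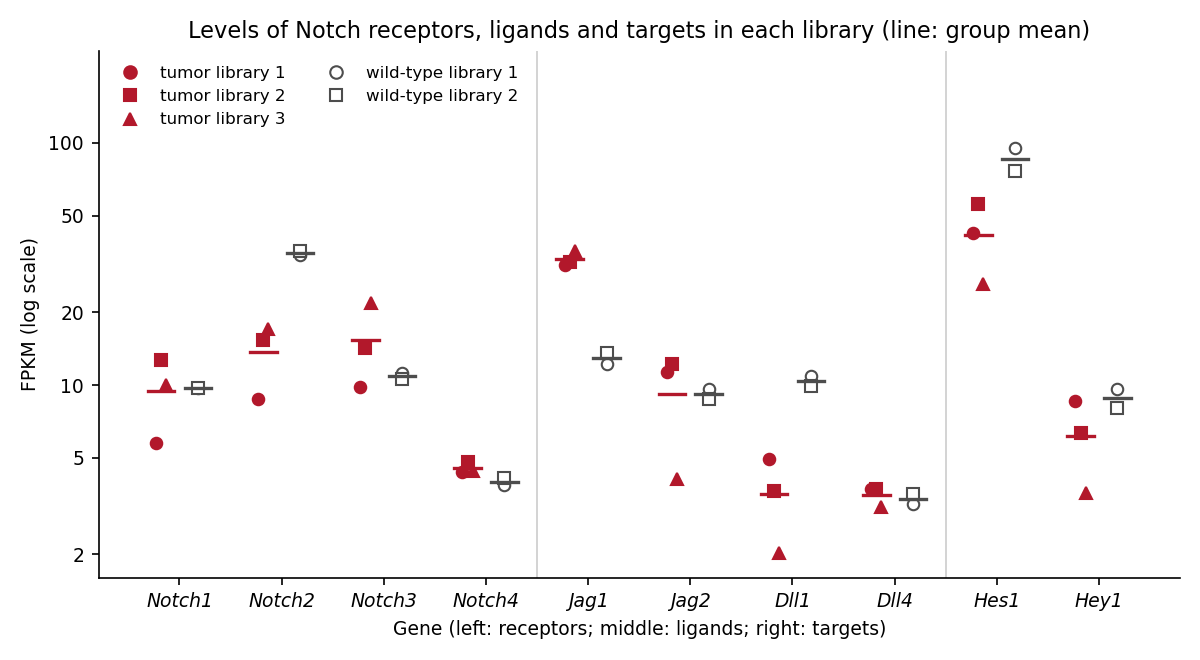
FPKM of the 10 genes on a log axis, with 1 point per library and a line at each group mean (3 tumor libraries in red, 2 wild type libraries in gray). Jag1 lies above both wild type libraries in every tumor (31.2 to 35.7 FPKM), and Notch2 and Dll1 lie below them.

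Notch2 was the receptor that changed. It was at 8.78, 15.3 and 17.1 FPKM in tumors 1, 2 and 3, against 34.5 and 35.9 FPKM in wild type. Every tumor lay below both wild type libraries, and tumor 1 was the lowest. The mean was 13.7 ± 4.36 FPKM in tumors (SD, n = 3) and 35.2 ± 0.972 FPKM in wild type (SD, n = 2). The change on the log2 scale was −1.50 ± 0.36 (SE; adjusted p = 0.035 in edgeR). The Notch2 locus spans bases 98013538 to 98150517 of chromosome 3 in mm10 (plus strand), and its principal transcript has 34 exons. With 1 wild type library left out the call ended (DESeq2 adjusted p = 0.057 and 0.075). The melanocyte, pigment epithelium and photoreceptor markers above fell in the same tumors, and their part in the Notch2 level was not tested.

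Notch3 and Notch1 varied widely among the tumors and did not pass. Notch3 was at 9.83, 14.2 and 21.9 FPKM in tumors 1, 2 and 3, against 11.2 and 10.6 FPKM in wild type (log2 fold change 0.54, SE 0.36, adjusted p = 0.29). Tumor 1 lay below both wild type libraries and tumors 2 and 3 above them. Notch1 was at 5.77, 12.7 and 9.97 FPKM in tumors 1, 2 and 3, against 9.68 and 9.69 FPKM in wild type (log2 fold change 0.02, SE 0.35, adjusted p = 0.97). The tumors lay on both sides of the wild type libraries, with tumor 1 lowest for each of Notch1, Notch2 and Notch3. Tumor 1 is also the library with high skeletal muscle markers, whose part in these values was not tested. Without it the log2 fold changes were 0.78 for Notch3 (adjusted p = 0.094) and 0.28 for Notch1 (adjusted p = 0.27).

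Notch4, the receptor most restricted to endothelium, was at a low and even level. It was at 4.36, 4.81 and 4.41 FPKM in tumors 1, 2 and 3, against 3.86 and 4.13 FPKM in wild type. The groups did not overlap, but the difference was small (log2 fold change 0.23 ± 0.14, SE) and missed the threshold (adjusted p = 0.25). Annotated genes overlap Notch1, Notch3 and Notch4 on the opposite strand and Notch2 on its own strand, and the strand setting of the counting is not given in the sources used here, so reads of the overlapping genes cannot be told apart.

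Jag1, a ligand with a broad expression in vessels and epithelia, was the gene that rose. It was at 31.2, 32.1 and 35.7 FPKM in tumors 1, 2 and 3, against 12.2 and 13.6 FPKM in wild type. All 3 tumors lay close together and above both wild type libraries. The means were 33.0 ± 2.36 FPKM in tumors (SD, n = 3) and 12.9 ± 0.981 FPKM in wild type (SD, n = 2), a ratio of 2.56. The log2 fold change was 1.38 ± 0.17 (SE; adjusted p = 0.0083). Its locus spans bases 137081451 to 137116520 of chromosome 2 (mm10, minus strand), its principal transcript has 26 exons, and no other annotated gene overlaps it. It was the member that DESeq2 still called with either wild type library left out (adjusted p = 0.0025 without wild type 1 and 0.00045 without wild type 2), where 18.5% and 18.2% of tested loci were called. Macrophage and T cell markers rose in the same tumors, and their part in the Jag1 level was not tested.

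Dll1, a Delta-like ligand of neural and epithelial progenitors, fell. It was at 4.94, 3.64 and 2.02 FPKM in tumors 1, 2 and 3, against 10.9 and 9.90 FPKM in wild type. Every tumor lay far below both wild type libraries, and tumor 3 was the lowest. The means were 3.54 ± 1.46 FPKM in tumors (SD, n = 3) and 10.4 ± 0.683 FPKM in wild type (SD, n = 2). The log2 fold change was −1.50 ± 0.39 (SE; adjusted p = 0.042). The call ended without tumor 2 (adjusted p = 0.075), with library size as the only scaling (adjusted p = 0.062) and with either wild type library left out (DESeq2 adjusted p = 0.17 and 0.12). Its locus spans bases 15367354 to 15375823 of chromosome 17 (mm10, minus strand), and the long noncoding gene A930024N18Rik overlaps it on the opposite strand. The markers of pigment cells and retina that fell in the tumors were not tested for a part in the Dll1 level.

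The other ligands did not pass. Jag2 was at 11.3, 12.2 and 4.11 FPKM in tumors 1, 2 and 3, against 9.60 and 8.72 FPKM in wild type, with tumor 3 far below the rest (log2 fold change 0.01, SE 0.47, adjusted p = 0.98). Dll4, the ligand of sprouting and arterial endothelium, was at 3.72, 3.73 and 3.14 FPKM in tumors 1, 2 and 3, against 3.24 and 3.56 FPKM in wild type (log2 fold change 0.11, SE 0.22, adjusted p = 0.72). Its groups overlapped and its spread was small.

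The make-up of the receptor and ligand pools is described by library, since so few libraries allow no share to pass a test. FPKM are per length and can be summed across genes. Notch2 supplied 30.6%, 32.6% and 32.0% of the summed receptor level in tumors 1, 2 and 3, against 58.2% and 59.5% in wild type. Its share was nearly the same in each tumor although the summed receptor level ranged there from 28.8 to 53.4 FPKM, against 59.3 and 60.3 FPKM in wild type. Notch3 supplied 34.2%, 30.1% and 41.0% in tumors 1, 2 and 3, against 19.0% and 17.5% in wild type. In tumors 1 and 3 Notch3 was the most abundant receptor, whereas Notch2 was in tumor 2 and in both wild type libraries.

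In the ligand pool Jag1 supplied 60.9%, 62.1% and 79.4% in tumors 1, 2 and 3, against 34.0% and 38.0% in wild type. Dll1 supplied 9.66%, 7.05% and 4.50% in tumors 1, 2 and 3, against 30.3% and 27.7% in wild type. The summed ligand level was 51.2, 51.7 and 44.9 FPKM in tumors 1, 2 and 3, against 35.9 and 35.8 FPKM in wild type. The groups did not overlap for any of the 8 shares. Shares within a pool are tied, since a rise of any share lowers others. In FPKM itself the groups overlapped for Notch1, Notch3, Jag2 and Dll4. The exact two-sided permutation test gave p = 0.2 for each share and each sum, which is the smallest value that 3 against 2 libraries allow, and 0.2 after Benjamini-Hochberg adjustment over the 8 shares.

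**Figure D2:**
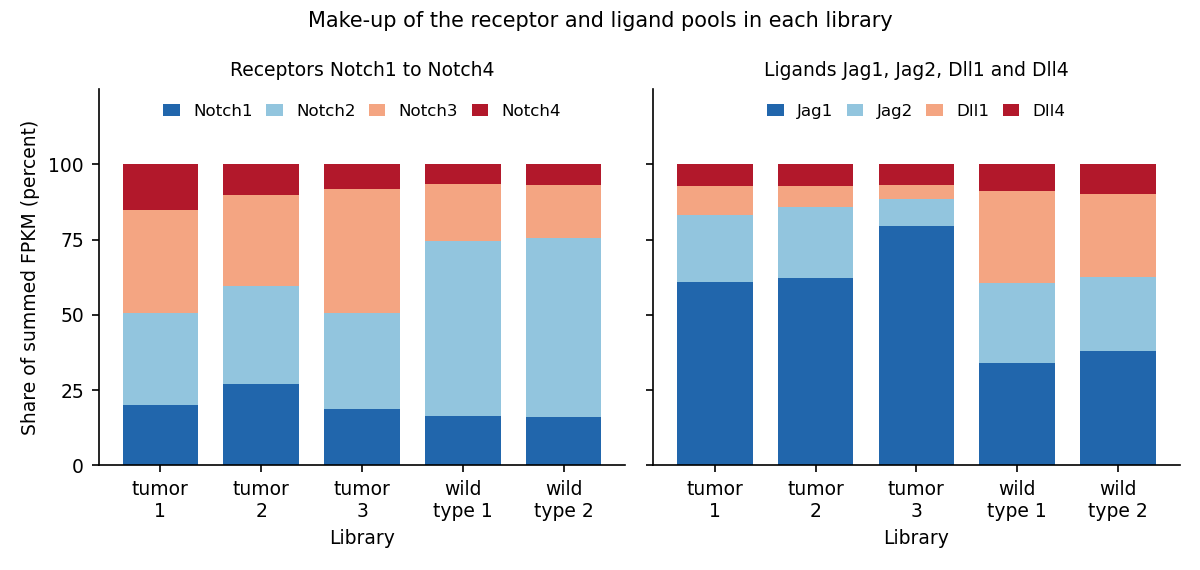
Share of the summed FPKM of the 4 receptors (left) and of the 4 ligands (right) that each gene supplied, in percent, with 1 stacked bar per library. The Notch2 band takes 30.6% to 32.6% of the tumor bars and 58.2% to 59.5% of the wild type bars, and the Jag1 band 60.9% to 79.4% of the tumor bars and 34.0% to 38.0% of the wild type bars.

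The target genes Hes1 and Hey1 had lower means in tumors but did not pass. Hes1, a repressor induced by Notch and by other signals, was at 42.5, 56.0 and 26.2 FPKM in tumors 1, 2 and 3, against 95.2 and 76.4 FPKM in wild type. Every tumor lay below both wild type libraries, and tumor 3 was the lowest. The means were 41.6 ± 14.9 FPKM in tumors (SD, n = 3) and 85.8 ± 13.3 FPKM in wild type (SD, n = 2). The log2 fold change was −0.94 ± 0.37 (SE; adjusted p = 0.11). Without tumor 2 the value was −1.28 and passed (adjusted p = 0.044). Tumor 2, the tumor with the most Hes1, also held more of the 6 pigment epithelium markers, none of them at 0 in any library. Their sum was 7.53, 62.2 and 10.6 FPKM in tumors 1, 2 and 3, against 10600 and 10500 FPKM in wild type, and their part in the Hes1 level was not tested.

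Hey1, a repressor of endothelial and other cells, was at 8.61, 6.34 and 3.60 FPKM in tumors 1, 2 and 3, against 9.60 and 8.06 FPKM in wild type (log2 fold change −0.46, SE 0.41, adjusted p = 0.41). Tumor 1 lay between the wild type libraries and tumors 2 and 3 below them. Tumor 3 was the lowest tumor for Hes1, Hey1, Jag2, Dll1 and Dll4 and the highest for Jag1, Notch2 and Notch3. It was also low in 5 Schwann cell markers, which summed to 123, 158 and 13.8 FPKM in tumors 1, 2 and 3, against 244 and 240 FPKM in wild type, and their part in these values was not tested.

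**Figure D3:**
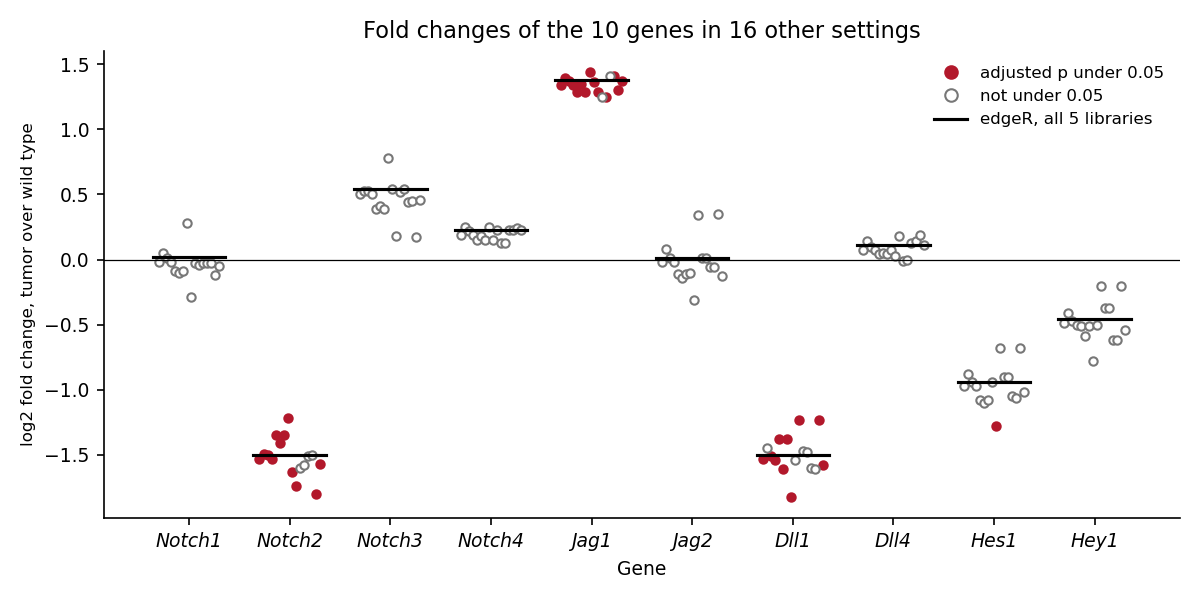
Log2 fold change of tumor over wild type for the 10 genes in 16 other settings (points; filled where the adjusted p was under 0.05) and in edgeR over all 5 libraries (black line). Jag1 stays above 1.2 and Notch2 below −1.2 in every setting, whereas Notch1 and Jag2 scatter around 0.

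The vascular members were set beside markers of the cells that carry them. Of 10 endothelial markers 0 rose and 1 fell, with summed levels of 260, 178 and 132 FPKM in tumors 1, 2 and 3, against 288 and 271 FPKM in wild type, and no marker was at 0. The ratio of Notch4 to the geometric mean of these markers, on a log2 scale with 0.1 FPKM added, was −2.19, −1.63 and −1.37 in tumors 1, 2 and 3, against −2.49 and −2.37 in wild type. The same log2 ratio for Dll4 was −2.42, −1.99 and −1.85 in tumors 1, 2 and 3, against −2.73 and −2.58 in wild type. Both ratios were higher in every tumor than in either wild type library. The geometric mean of the markers was itself lower in every tumor than in either wild type library. Its log2 values were 4.35, 3.93 and 3.55 in tumors 1, 2 and 3, against 4.47 and 4.45 in wild type. The single markers differed in direction, so the ratios depend on which are used. Kdr, Tie1, Emcn, Cldn5 and Robo4 were lower in every tumor than in either wild type library. Pecam1 was higher in every tumor (42.7, 20.5 and 20.1 FPKM in tumors 1, 2 and 3, against 17.0 and 18.9 FPKM in wild type). The groups overlapped for Cdh5, Tek, Esam and Egfl7. Of 5 arterial endothelial markers 0 rose and 0 fell. They summed to 34.2, 23.8 and 15.5 FPKM in tumors 1, 2 and 3, against 20.3 and 20.6 FPKM in wild type. No ratio to the arterial markers was taken. The log2 ratio of Notch1 to the endothelial markers was −1.80, −0.25 and −0.22 in tumors 1, 2 and 3, against −1.18 and −1.16 in wild type. Tumor 1 thus stood on the other side. That of Hey1 was −1.23, −1.24 and −1.66 in tumors 1, 2 and 3, against −1.19 and −1.42 in wild type, and the groups overlapped.

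Of 10 mural markers 0 rose and 2 fell. Their summed level was 960, 738 and 877 FPKM in tumors 1, 2 and 3, against 764 and 739 FPKM in wild type, and none was at 0. Des, a gene that skeletal muscle also expresses, gave 408 FPKM of the sum in tumor 1. Without it the sum was 551, 691 and 814 FPKM in tumors 1, 2 and 3, against 738 and 712 FPKM in wild type. Tumors 1 and 2 then lay below both wild type libraries and tumor 3 above both. The markers did not move together in tumor 3. Acta2 (423 FPKM, against 365 and 349 FPKM in wild type), Pdgfrb (145 FPKM, against 19.6 and 19.0 FPKM) and Mcam lay above both wild type libraries. Rgs5 (11.6 FPKM, against 61.0 and 68.4 FPKM), Myh11 (6.38 FPKM, against 44.3 and 48.9 FPKM), Cspg4, Kcnj8 and Abcc9 lay below both, and Tagln lay between them. The log2 ratio of Notch3 to the geometric mean of all 10 mural markers was −1.84, −0.99 and 0.06 in tumors 1, 2 and 3. In wild type it was −1.32 and −1.44. Without Des, a choice made after seeing the data, the ratio was −1.45, −0.91 and 0.24 in tumors 1, 2 and 3, against −1.33 and −1.45 in wild type. Tumor 3, with the most Notch3, had the highest ratio either way, whereas tumor 1 lay below both wild type libraries only with Des counted. These ratios were described and not tested.

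Among 67 further pathway genes, 65 passed the filter (all but Dll3 and Ptcra), of which 10 rose, 14 fell and 41 did not pass. This is 36.9% changed, against 34.1% of all tested loci, and the median log2 fold change was −0.12. The genes were grouped by role.

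The Fringe glycosyltransferases, which add sugar to Notch and so tune its response to Delta-like and Jagged ligands, moved in different directions. Lfng was at 22.1, 24.2 and 40.9 FPKM in tumors 1, 2 and 3, against 10.4 and 9.07 FPKM in wild type, and rose (log2 fold change 1.63, SE 0.33, adjusted p = 0.023). Mfng was at 11.0, 9.01 and 11.6 FPKM in tumors 1, 2 and 3, against 6.08 and 5.62 FPKM in wild type, and rose (0.89, SE 0.22, adjusted p = 0.035). Rfng was at 8.27, 10.6 and 11.1 FPKM in tumors 1, 2 and 3, against 23.1 and 20.5 FPKM in wild type, and fell (−1.07, SE 0.19, adjusted p = 0.017). Rfng was thus the most abundant Fringe gene in both wild type libraries and Lfng in all 3 tumors. Eogt, listed in the table as A130022J15Rik and encoding an enzyme that adds N-acetylglucosamine to EGF repeats, fell as well (log2 fold change −0.67, adjusted p = 0.04). In all, 2 of 6 genes of this role rose and 2 fell. Without tumor 1 the call of Mfng ended (adjusted p = 0.062). In DESeq2 fits without 1 wild type library, those of Mfng and Eogt ended both times, that of Rfng without wild type 1 (adjusted p = 0.11) and that of Lfng without wild type 2 (adjusted p = 0.057).

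The RBPJ core occurred 2 times in 7 of 75 windows of the further pathway genes (9.33%, against 3.79% of all windows with at least 2 matches). These windows belong to Lfng, Aak1, Rbpj, Kat2a, Hes5, Hey2 and Ptcra, and all but that of Ptcra hold it on both strands. The promoter of Lfng, chosen after the search, is printed as an example. It lies at chr5:140607091-140607370 (GRCm38.p6, plus strand, RefSeq), and the capitals mark the core and its reverse complement.
Lfng: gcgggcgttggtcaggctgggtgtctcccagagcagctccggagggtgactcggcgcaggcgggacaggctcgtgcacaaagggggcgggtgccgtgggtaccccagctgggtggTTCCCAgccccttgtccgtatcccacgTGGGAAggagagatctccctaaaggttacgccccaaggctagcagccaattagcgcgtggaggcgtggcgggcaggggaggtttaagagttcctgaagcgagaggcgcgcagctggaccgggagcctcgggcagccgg
The matches begin at bases -135 and -108 from the start site. Of the windows of the further pathway genes, 28.0% held the core at least once, near the 25.6% of all windows.

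Of 22 genes of the nuclear complex, 2 rose and 4 fell. Rbpj, the DNA-binding partner of the cleaved receptor, was at 17.2, 18.2 and 28.1 FPKM in tumors 1, 2 and 3, against 7.85 and 9.12 FPKM in wild type, and rose (log2 fold change 1.36, SE 0.28, adjusted p = 0.024; 0.081 in DESeq2 without wild type 1). The histone acetyltransferase gene Kat2a rose (0.66, adjusted p = 0.038), which was lost without tumor 2 or tumor 3 (adjusted p = 0.059 and 0.063), in all 3 limma-trend settings (adjusted p = 0.05 to 0.06) and in both DESeq2 fits without a wild type library (adjusted p = 0.28 and 0.37). Its paralog Kat2b fell (−1.52, adjusted p = 0.0079). The corepressor genes Tle4 and Ctbp2 fell as well. Tle4, of the Groucho family that Hes proteins recruit, was at 4.07, 4.22 and 4.70 FPKM in tumors 1, 2 and 3, against 19.7 and 20.4 FPKM in wild type (−2.16, SE 0.13, adjusted p = 0.0033). The value for Ctbp2 was −1.35 (log2 fold change, adjusted p = 0.014).

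Of 10 proteases and gamma-secretase genes, 1 rose and 1 fell. Adam17, a metalloprotease that can cleave Notch and many other surface proteins, was at 21.4, 21.2 and 28.2 FPKM in tumors 1, 2 and 3, against 9.49 and 10.3 FPKM in wild type (log2 fold change 1.30, SE 0.19, adjusted p = 0.012). Aph1c, a rodent gamma-secretase subunit gene with the close paralog Aph1b, fell (−2.47, adjusted p = 0.02), and reads may be split between the paralogs.

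Among 15 ubiquitin ligase and trafficking genes 3 rose and 5 fell. Neurl1b, a ligase gene for ligand uptake, rose to 1.54, 1.68 and 2.15 FPKM in tumors 1, 2 and 3, against 0.36 and 0.375 FPKM in wild type (log2 fold change 2.33, adjusted p = 0.009). The Deltex genes Dtx3l and Dtx4 rose (2.04, adjusted p = 0.018, and 1.03, adjusted p = 0.012) and Dtx3 fell (−0.71, adjusted p = 0.038). Dtx1, named after its values were seen, fell as well, to 0.940, 3.07 and 0.341 FPKM in tumors 1, 2 and 3, against 16.7 and 16.3 FPKM in wild type (−3.45, adjusted p = 0.039, and 0.098 without tumor 1). Aak1, a kinase gene of endocytosis, fell (−0.97, adjusted p = 0.0093), and so did Fbxw7, a ubiquitin ligase subunit gene for breakdown of the intracellular domain (−0.64, adjusted p = 0.033). The Dtx3 call ended without tumor 1 or tumor 3 (adjusted p = 0.059 and 0.063), and with library size as the only scaling those of Dtx3 and Fbxw7 ended (adjusted p = 0.061 and 0.073). The Fbxw7 call also ended in all 3 limma-trend settings (adjusted p = 0.076 to 0.099). In DESeq2 the calls of Dtx3 and Fbxw7 ended without either wild type library, and that of Dtx4 without wild type 1 (adjusted p = 0.052).

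Of 7 noncanonical or further ligands, 6 were tested, 1 rose and 1 fell. Mfap5, a microfibril protein gene reported to bind Notch1 and Jag1, was at 315, 123 and 293 FPKM in tumors 1, 2 and 3, against 29.5 and 29.6 FPKM in wild type (log2 fold change 3.08, adjusted p = 0.015). Dlk1, a Delta-like protein gene without the receptor-binding domain of true ligands, was at 0.264, 0.787 and 0.398 FPKM in tumors 1, 2 and 3, against 3.01 and 2.71 FPKM in wild type (−2.52, adjusted p = 0.024; 0.074 in DESeq2 without wild type 1).

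Of the 6 further target genes tested, Heyl rose and Hes6 fell. Heyl, a Hey gene of mural and endothelial cells, was at 11.0, 12.7 and 10.2 FPKM in tumors 1, 2 and 3, against 4.69 and 4.59 FPKM in wild type, and rose (log2 fold change 1.34, SE 0.16, adjusted p = 0.0081). Hes6, which encodes an antagonist of Hes1 and is not itself a classical target, fell (−0.54, adjusted p = 0.039), and this was lost without tumor 1 (adjusted p = 0.07), without a filter (adjusted p = 0.05) and in both DESeq2 fits without a wild type library (adjusted p = 0.36 and 0.27). Values of 3 more genes are given, chosen after they were seen. Hes5, a target in neural progenitors and glia, was at 0, 0.401 and 0 FPKM in tumors 1, 2 and 3, against 3.42 and 2.63 FPKM in wild type, and did not pass (adjusted p = 0.059). The tumor level rests on 6 fragments, all in tumor 2. Hey2 was at 3.14, 5.45 and 12.0 FPKM in tumors 1, 2 and 3, against 1.92 and 2.10 FPKM in wild type (1.82, adjusted p = 0.083). Nrarp, a feedback inhibitor gene induced by Notch, was at 6.13, 6.37 and 5.15 FPKM in tumors 1, 2 and 3, against 4.43 and 4.47 FPKM in wild type (0.45, adjusted p = 0.15).

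**Figure D4:**
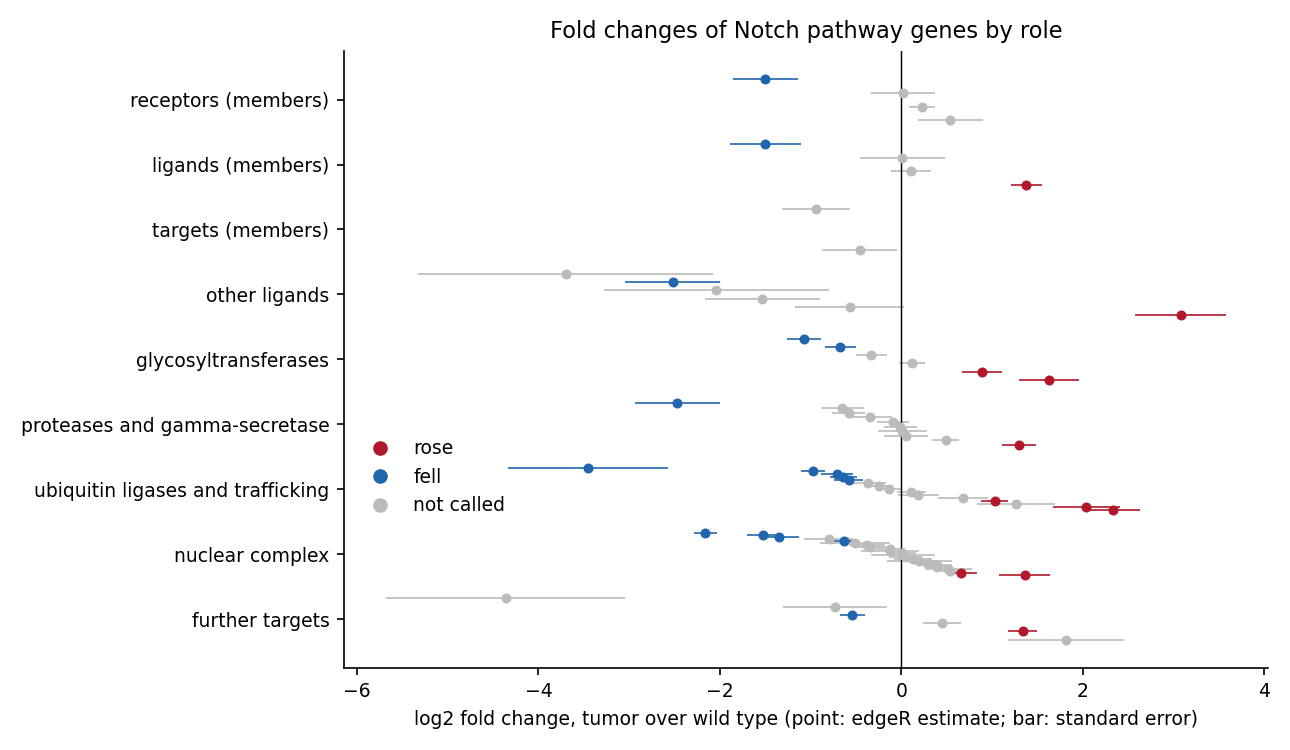
Log2 fold change of tumor over wild type (edgeR estimate, bar for the standard error) for the 10 members and 65 tested pathway genes, by role, in red where a gene rose and in blue where it fell. Each role of the further genes holds both a rise and a fall.

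Profiles over the 5 libraries were compared with those of 12427 other loci by the Euclidean distance between log2(FPKM + 1) values centred on each gene's mean. The profile nearest to Jag1 was that of B3gnt8, at a distance of 0.083, followed by Aida at 0.098. Nearest to Notch2 was Slc7a5 (0.113) and then Pfkl (0.201), and nearest to Dll1 Pla2g12a (0.128) and Pink1 (0.153). Hes1 was nearest to Kifc2 (0.105) and Tjp3 (0.161), and Hey1 to Rilpl1 (0.064) and Efcab2 (0.168). Nearest to Notch1 was Galnt3 (0.056), to Notch3 Erap1 (0.159) and Sept8 (0.161), and to Notch4 Nsd1 (0.044) and Evi5 (0.055). Jag2 was nearest to Ntn1 (0.188) and Efna4 (0.209), and Dll4 to Zfp74 (0.043) and Ick (0.047). No member was among the nearest loci of another.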

How the data were processed

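Total RNA of mouse eye tumors (3 libraries) and wild type uvea (2 libraries) was sequenced. The submitters' processing notes name Cufflinks 2.2.1, Cuffdiff, TopHat2 2.0.9 and the build mm10. The annotation, read filters and strandedness of the counting are not given in the sources used. The authors deposited, per the file headers, an estimated count of fragments per locus and replicate, before scaling, and an FPKM after their scaling between replicates. A second deposited table gave gene names and locus positions, and its FPKM by group, equal within 1% to replicate means at 100% of loci over 1 FPKM, entered no test.

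Estimated counts (98.6% to 98.7% per library within 0.01 of a whole number) were rounded. Loci without a gene name (1627 of 24768, holding 1.52% to 4.37% of fragments) stayed out. Tests ran in edgeR 4.0.16 (R 4.3.3) on 23141 named loci (filterByExpr at a minimum count of 10, TMM factors 0.909 to 1.08, quasi-likelihood F-test, two-sided, Benjamini-Hochberg adjustment over all tested loci). An adjusted p without a named tool is edgeR's. SEs were taken as the size of the log2 fold change over the root of F. The edgeR code was also run on simulated counts in which far fewer loci changed than in these data. The outcome is not given here, and no call rests on it. DESeq2 1.42.0, limma 3.58.1, other scalings and filters, and fits without single libraries were alternatives. Shares were tested by exact permutation (SciPy 1.17.1). Libraries are numbered in the order of the table, whose replicate numbers are not tied to those of the labels.

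The members, pathway list, markers and tests were chosen with earlier results of these data known. Named pathway genes are, per role, up to 3 rises and 3 falls with the smallest adjusted p, and for likeness the 2 nearest loci with a single name and a mean of at least 1 FPKM (for Notch1 only the nearest is reported here). Gene overlaps and exons are from GENCODE M21, promoters from RefSeq GRCm38.p6.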

Additional observations from a re-analysis of the deposited data

How the results depend on the processing

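Jag1, Notch2 and Dll1 were called with RLE scaling, without a filter, with DESeq2, with limma-trend at each setting, without tumor 1 or tumor 3 and with voom, the last chosen after seeing the data. The count of changed members was 0 to 3 over the fits without single libraries. Without tumor 2 it was 3 with Hes1 in place of Dll1. Without wild type 1 or 2, edgeR called 0 members, 0 pathway genes and 0 of all tested loci (unadjusted p under 0.05 at 2 and 3 members, 21 and 19 pathway genes and 4085 and 3996 loci), the remaining wild type library being assumed to vary like the tumors. DESeq2 called 1 and 1 members, 12 and 15 pathway genes and 2828 and 2793 loci in the same sets. Over the fits without single libraries, pathway genes changed numbered 0 to 26 and all changed loci 0 to 6144. With both wild type libraries, 13 of the 24 pathway calls held in all 12 other settings, and 11 of the 24 in both DESeq2 fits without a wild type library. A fit with the table's replicate number as a block called 3 members, 15 pathway genes and 3067 loci. Libraries with the same number did not deviate together (r = 0.0131 and 0.0267 across 15241 loci), so the numbers were not taken as pairs.

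Directions were not stable for genes near 0. Notch1, at 0.02, was at −0.02 with RLE and with DESeq2, −0.09 with limma-trend on log2(FPKM + 1) with or without a filter, −0.10 with 0.1 added, −0.12 with the block, −0.05 with voom, and −0.29 to 0.28 without single libraries (−0.03 in each DESeq2 fit without a wild type library). Jag2, at 0.01, was at −0.02 with RLE and with DESeq2, −0.11 with log2(FPKM + 1) with or without a filter, −0.14 with 0.1 added, −0.13 with voom and −0.31 to 0.34 without single libraries (−0.06 with DESeq2 without wild type 2). Dll4, at 0.11, was at −0.01 to 0.18 without single libraries and −0.00469 with DESeq2 without wild type 1. The cause was not tested. Of all changed loci 2852 rose and 2349 fell, but 2429 rose and 3067 fell with limma-trend without a filter. All 8 shares, which are tied to each other within each pool, kept their direction with CPM in place of FPKM and without each library. Depth limits Dll1 in tumor 3 (87 fragments) and Hes5.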
